A study of Mus musculus with 3 samples.

Results

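The CCN family consists of 6 secreted matricellular proteins, Ccn1 to Ccn6. All 6 genes were found by symbol among the 32285 gene rows of the deposited matrices. Their UMI counts (unique molecular identifiers, each standing for 1 captured RNA molecule) were followed across the cell types of a mouse fracture callus, across chondrocyte states set by the share of Col10a1 UMIs, and across libraries. The samples were 3 droplet single-cell libraries of callus taken on day 7 after a pinned midshaft femoral fracture in female C3H/HeJ mice aged 9 weeks, a strain described as healing slowly. The groups were control (vehicle, PBS), PTH (PTH 1-34, a fragment of parathyroid hormone, 100 µg/kg) and YKL (YKL-05-099, a salt-inducible kinase inhibitor, 15 mg/kg), each given daily under the skin. Fracture, pin, strain, sex and age were shared by all groups. Marrow was avoided at dissection and cells were released with collagenase. How many animals made up a library was not given in the sources used here.

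Each group had 1 library, so no difference between treatments has a replicate check. All values below are descriptions of these libraries, and intervals (95%, exact) cover counting error only. The matrices held 14807 barcodes, of which 5435 passed the filters: 2928 in control, 1907 in PTH and 600 in YKL, at medians of 11681, 12280 and 25686 UMIs per cell. PTH stood apart in barcodes over 10% mitochondrial UMIs, with 44.5% against 17.6% in control and 18.5% in YKL. It also held 228 of the tendon cells, against 2 in control and 1 in YKL. Chondrocytes numbered 1548, 675 and 423 in control, PTH and YKL, and had UMIs of all 16 chondrocyte markers in each library. Barcodes shared between libraries numbered 8, 3 and 2 for the 3 pairs, and 1, 0 and 0 among kept cells.

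CCN proteins are built from modules that bind insulin-like growth factors, bone morphogenetic and transforming growth factors, heparan sulphate and integrins, and they act largely by tuning how cells read those signals. Ccn1 and Ccn2 are immediate early genes and standard targets of YAP and TAZ with TEAD factors. In cartilage, Ccn2 is known for supporting chondrocyte proliferation, hypertrophy and vessel entry, and its loss disturbs the growth plate. Ccn3 often opposes Ccn2, Ccn4 is a WNT-induced gene of osteoblast precursors, Ccn5 lacks the C-terminal module of its relatives, and loss of Ccn6 in people causes a cartilage disease. The missing module of Ccn5 shows in its coding length in GENCODE vM21, at 753 bases against 1044 to 1137 for the other members.

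Levels are given as CPM, the member's UMIs per 1000000 UMIs of the cell class. Only levels of 1 gene are compared with each other. A member was called different where 2 sums with at least 50 UMIs in all, from at least 50 cells each, were at least 1.5-fold apart. Neutrophils, which should lack CCN transcripts, gave a level reached by free RNA: in the 470 control neutrophils Ccn1 was at 8.97 CPM, Ccn2 at 7.92, Ccn3 at 2.64, Ccn4 at 2.11, and Ccn5 and Ccn6 had no UMI. The 78 control T and NK cells were higher for Ccn1 and Ccn2, at 20.5 and 16.4 CPM, from 5 and 4 UMIs. The free RNA level is thus known only roughly.

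The 6 genes occupied different cells of the callus. Of all UMIs in kept cells, chondrocytes held 76.9% for Ccn1, 72.6% for Ccn2, 62.2% for Ccn4 and 94.8% for Ccn6. Chondrocytes made up 52.9% of kept cells in control, 35.4% in PTH and 70.5% in YKL, so such shares also follow cell numbers and depth. Their share of the UMIs of all genes was not computed, so these values do not show enrichment. For Ccn4 the chondrocyte share was 75.3%, 38.2% and 79.9% in control, PTH and YKL. Fibroblasts and mesenchymal progenitors held 78.2% for Ccn3, of which chondrocytes held 2.39%. Ccn5 was divided, with 37.0% in fibroblasts and 32.6% in chondrocytes over all libraries. These shares were 31.7% and 53.9% in control, and 46.4% and 12.4% in PTH. Over all libraries the UMIs were 15436 for Ccn1, 17646 for Ccn2, 4017 for Ccn3, 3309 for Ccn4, 638 for Ccn5 and 212 for Ccn6, so the last pair of genes is measured least well.

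**Figure D1:**
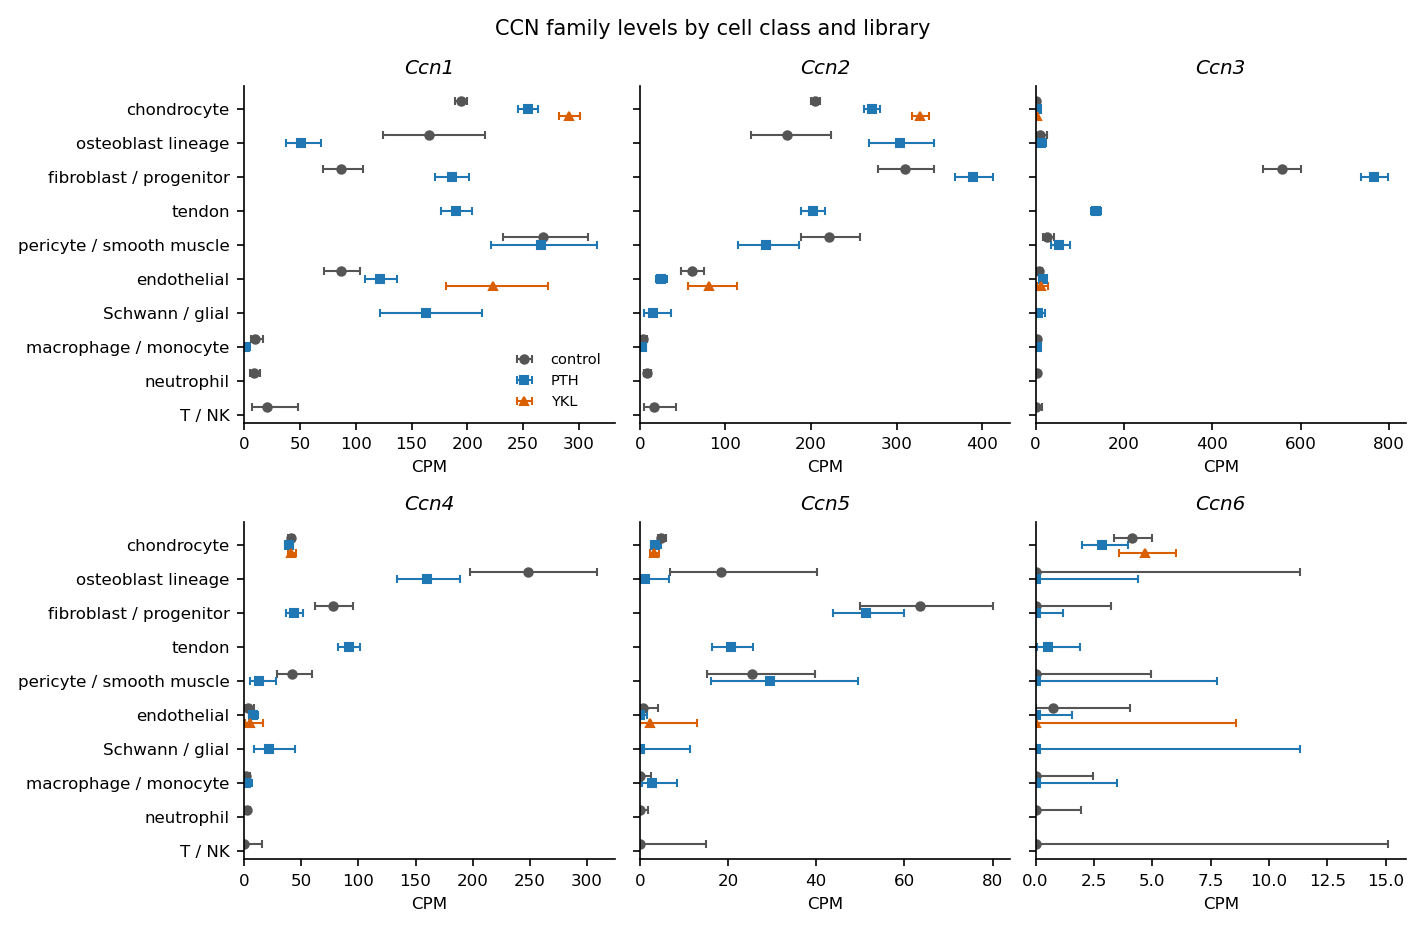
CPM of each CCN gene (x axis) in cell classes of at least 30 cells (y axis) in the control, PTH and YKL libraries, with exact 95% counting intervals. Ccn3 and Ccn5 are highest in control and PTH fibroblasts, Ccn4 in control and PTH osteoblast-lineage cells, and UMIs of Ccn6 lie almost wholly in chondrocytes.

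Ccn1 (ENSMUSG00000028195; GRCm38 chr3:145646971-145649985, minus strand, 5 exons) encodes an angiogenic matrix protein that binds integrins. Its promoter is shown because Ccn1 was the measured member farthest apart between libraries within a chondrocyte state, and because it holds letters bound by TEAD factors and by CREB, factors through which YAP and PTH signals are read. The 250 bases before its RefSeq start (GRCm38.p6, chr3:145649986-145650235, minus strand, printed 5′ to 3′) read as follows, with capitals marking a TEAD match and a CRE core.
Ccn1 promoter: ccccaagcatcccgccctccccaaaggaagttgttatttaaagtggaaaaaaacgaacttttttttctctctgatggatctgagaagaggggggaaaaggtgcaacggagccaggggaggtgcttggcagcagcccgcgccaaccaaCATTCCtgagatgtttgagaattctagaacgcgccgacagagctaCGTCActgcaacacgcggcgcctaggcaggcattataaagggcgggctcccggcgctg
The TEAD letters searched were GGAATG on either strand, and the match lies 103 to 98 bases before the start. The CRE core, TGACG on either strand, is part of the full CRE bound by CREB, and its match lies 58 to 54 bases before the start. Among 32851 RefSeq promoter stretches of the same length, 12.6% held the TEAD letters and 17.8% the CRE core, so each is common. The full CRE (TGACGTCA, in 1.55% of promoters), the AP-1 letters (TGANTCA, in 6.75%) and the CArG box of SRF (in 1.47%) were not in this window. The table of promoters held 2 of the 6 members, and in the window of Ccn6 only a CRE core matched, 36 to 32 bases before its start. A match is a description of letters, not a bound site.

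Across cell classes of control, Ccn1 was highest in pericytes and smooth muscle cells, at 268 CPM (232 to 308) in 81 cells. Chondrocytes followed at 195 CPM (189 to 200), then osteoblast-lineage cells at 166 CPM (124 to 216), whose interval overlaps that of chondrocytes. In PTH the pericytes, at 266 CPM (221 to 316), and chondrocytes, at 254 CPM (245 to 263), overlapped, and the osteoblast-lineage cells were lowest of the 3, at 51.2 CPM (37.1 to 69.0). Control fibroblasts at 87.2 CPM (70.9 to 106) and control endothelial cells at 86.6 CPM (71.8 to 104) were below all of these control classes, with overlapping intervals. In PTH fibroblasts and endothelial cells were at 186 and 122 CPM, above the PTH osteoblast-lineage cells. Macrophages and monocytes were at 10.0 CPM in control and 0.950 CPM in PTH, beside the 8.97 CPM of control neutrophils. Skeletal muscle cells of the PTH library reached 324 CPM (248 to 416), from 28 cells. YKL had another order, with its 18 fibroblasts at 370 CPM (297 to 456), above its chondrocytes at 291 CPM.

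Ccn2 (ENSMUSG00000019997; chr10:24595442-24598683, plus strand) encodes connective tissue growth factor. In control it was highest in fibroblasts, at 310 CPM (278 to 343). There the 1% of 111 cells with most Ccn2 held 35.8% of its 355 UMIs, so this rank leans on very few cells. Pericytes at 221 CPM (189 to 258), chondrocytes at 205 CPM (199 to 211) and osteoblast-lineage cells at 172 CPM (130 to 223) had overlapping intervals. Endothelial cells were lower, at 60.4 CPM (48.1 to 74.9). In YKL, the few osteoblast-lineage cells and fibroblasts, 18 cells each, gave 750 CPM (678 to 827) and 967 CPM (846 to 1100), above the 390 CPM (368 to 412) of PTH fibroblasts, the highest among classes of at least 30 cells. In those YKL osteoblast-lineage cells chondrocyte markers summed to 50457 CPM and osteoblast-lineage markers to 36703 CPM, whose part in the Ccn2 value was not tested. A transcript on the opposite strand, Gm15270, overlaps Ccn2, and whether counting used strand was not given in the sources used here, so their reads cannot be told apart with certainty.

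Ccn3 (ENSMUSG00000037362; chr15:54745910-54753762, plus strand), a growth-restraining member, marked the fibroblast class. Its level there was 557 CPM (515 to 602) in control and 767 CPM (737 to 799) in PTH. The 18 YKL fibroblasts gave 416 CPM (338 to 507). Tendon cells of PTH followed at 136 CPM (125 to 148), and pericytes held 26.8 CPM in control and 52.7 CPM in PTH. In chondrocytes it was at 1.10, 2.52 and 2.84 CPM in control, PTH and YKL, below the upper bound of 6.16 CPM in control neutrophils. Of the 37 YKL UMIs, however, 29 lay in the 55 YKL cells of the cluster led by Ucma, at 12.8 CPM (8.57 to 18.4), where control and PTH cells of that cluster had 1.36 and 2.63 CPM. The neutrophils of PTH and YKL, 21 and 15 cells with 2 and 1 UMIs, are too few to set a level for those libraries.

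Ccn4 (ENSMUSG00000005124; chr15:66891369-66923201, plus strand) was highest in osteoblast-lineage cells of every library. It stood there at 249 CPM (197 to 309) in 32 control cells, 160 CPM (134 to 189) in 53 PTH cells and 189 CPM (154 to 230) in 18 YKL cells. Chondrocyte markers summed in these cells to 10039, 19065 and 50457 CPM in control, PTH and YKL, and osteoblast-lineage markers to 39009, 56317 and 36703 CPM, so the YKL class held more of the former. Their part in the Ccn4 values was not tested. Lower levels were found in PTH tendon cells, at 91.6 CPM (82.2 to 102), in control fibroblasts, at 77.6 CPM (62.3 to 95.5), and in the 24 control Schwann or glial cells, at 95.9 CPM (56.8 to 152) from 18 UMIs. Chondrocytes held 41.1, 38.8 and 41.3 CPM in control, PTH and YKL. Endothelial cells, at 3.64 to 7.61 CPM, were near the 2.11 CPM of control neutrophils.

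Ccn5 (ENSMUSG00000027656; chr2:163820752-163833146, plus strand) was highest in fibroblasts among classes of at least 30 cells in control and PTH. It was at 63.6 CPM (49.9 to 80.0) in control and 51.4 CPM (43.8 to 60.0) in PTH fibroblasts. The 18 YKL fibroblasts gave 8.41 CPM (1.02 to 30.4) from 2 UMIs, below the 20.8 CPM (10.4 to 37.3) from 11 UMIs of the 18 YKL osteoblast-lineage cells, with overlapping intervals. Pericytes held 25.5 and 29.5 CPM, PTH tendon cells 20.6 CPM, and the 28 PTH skeletal muscle cells 112 CPM (69.1 to 171) from 21 UMIs. Ccn6 (ENSMUSG00000062074; chr10:39150970-39174376, minus strand), which overlaps Tube1 on the opposite strand, was a low but cartilage-held transcript. Chondrocytes had 4.13 CPM (3.38 to 5.01) in control, 2.84 CPM (1.98 to 3.95) in PTH and 4.69 CPM (3.58 to 6.02) in YKL. Fibroblasts had 0 UMIs of it, with exact upper bounds of 3.22 CPM in control and 1.18 CPM in PTH.

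The sharing of patterns was described by Pearson's r of log2(CPM + 10) over 18 units, each a class in a library with at least 30 cells, among 6075 genes. These units share libraries, depth and free RNA, so r carries no p. Within the family, Ccn3 and Ccn5 were most alike (r = 0.87), then Ccn2 and Ccn4 (0.77) and Ccn1 and Ccn2 (0.76), while r was -0.30 for Ccn3 and Ccn6. Closest to Ccn1 were Nedd4 (0.94), Zbtb20 (0.91), Rbms2, Dlc1 and Mageh1 (0.90 each). Closest to Ccn2 were the matrix genes P3h3 (0.93), Col6a3 and Pcolce (0.92 each), with Fam114a1 (0.91) and Mgp (0.90). Ccn3 went with Dpt (0.97), Nox4, Clec3b, Wnt9a and Fgf18 (0.96 each). Ccn4 went with Timp1 (0.96), Creb3l1, Col1a1 and Ptprd (0.94 each) and Col12a1 (0.93). Ccn5 went with C1s1 (0.95), Cd248, Angpt1 and C1s2 (0.94 each) and Ebf2 (0.93), and Ccn6 with Cdsn (0.97), Ppp1r1b (0.95), Gdf5 (0.94), Meltf and Car12 (0.93 each). Over classes with all libraries joined, r of Cdsn and Ccn6 was 0.37, of Dpt and Ccn3 0.68, and of Rbms2 and Ccn1 0.69. The genes named for Ccn5 had 0.56 to 0.69 there, Fgf18 was not ranked, and the other named genes had 0.76 to 0.97. Ccn6 reached at most 4.69 CPM, under the 10 added before the logarithm.

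Chondrocytes of the callus mature toward hypertrophy, when they switch on Col10a1 and enlarge before cartilage is replaced by bone. They were sorted by Col10a1 as a share of the cell's UMIs into a low (under 0.1%), an intermediate (0.1% to under 1%) and a high state (1% and over). Control had 1271, 141 and 136 cells in these states, PTH 506, 101 and 68, and YKL 186, 129 and 108. The states are ranges and not types: 3.04% of control, 5.93% of PTH and 11.3% of YKL chondrocytes lay within 1.5-fold of the upper boundary.

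Ccn4 was lower in hypertrophic cells of every library. It was at 42.9 CPM in low and 9.60 CPM in high cells of control, 42.3 and 14.2 CPM in PTH, and 65.7 and 6.18 CPM in YKL. High cells were below low cells in each library, at ratios of 0.224 (0.136 to 0.348), 0.335 (0.196 to 0.536) and 0.0940 (0.0568 to 0.147). Between Col10a1 shares of 0.3 to 1% and of 1 to 3%, Ccn4 was at 43.6 and 8.83 CPM in control, 45.8 and 13.5 CPM in PTH, and 31.7 and 8.53 CPM in YKL. In YKL it was already lower in intermediate cells, at 33.9 CPM and a ratio to low cells of 0.516 (0.421 to 0.630), where the ratios were 1.22 (1.01 to 1.47) in control and 0.904 (0.684 to 1.18) in PTH.

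By these boundaries Ccn1 was also lower in high than in low cells, but by different amounts. In control it was 210 CPM (204 to 216) in low, 161 CPM in intermediate and 82.1 CPM in high cells, a high-to-low ratio of 0.391 (0.334 to 0.456). In PTH it was at 274, 191 and 193 CPM, a ratio of 0.703 (0.614 to 0.802), and in YKL at 325, 261 and 267 CPM, a ratio of 0.821 (0.756 to 0.890). Only the control ratio reached the call. The PTH ratio reached it with a mitochondrial maximum of 5% (0.545) and with Col10a1 boundaries of 0.2% and 2% (0.552). The YKL ratio lay on the other side of 1 with that maximum (1.32), with each cell thinned to 2000 UMIs (1.12) and as a mean over cells (1.07). Ccn2 did not follow this order, with high-to-low ratios of 1.11 (1.01 to 1.23) in control, 0.900 (0.799 to 1.01) in PTH and 1.41 (1.31 to 1.52) in YKL. The control ratio was 0.495 with a mitochondrial maximum of 5%.

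In counts, no member was called higher in high than in low cells of any library, and the lower calls were Ccn1, Ccn4 and Ccn5 of 5 measured in control, and Ccn4 alone of 3 measured in PTH and in YKL. Among all genes measured, 16.3%, 14.3% and 15.8% were called higher, and 24.6%, 25.2% and 21.9% lower, in control, PTH and YKL. The call of Ccn5 rested on 1 UMI in the control high cells against 112 in the low cells, at a ratio of 0.0893 (0.00224 to 0.508), and with each cell thinned to 2000 UMIs it was 2.39. Ccn6 stood at 3.84 CPM in low and 5.28 CPM in high control cells, within counting error (ratio 1.38, 0.660 to 2.60).

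**Figure D2:**
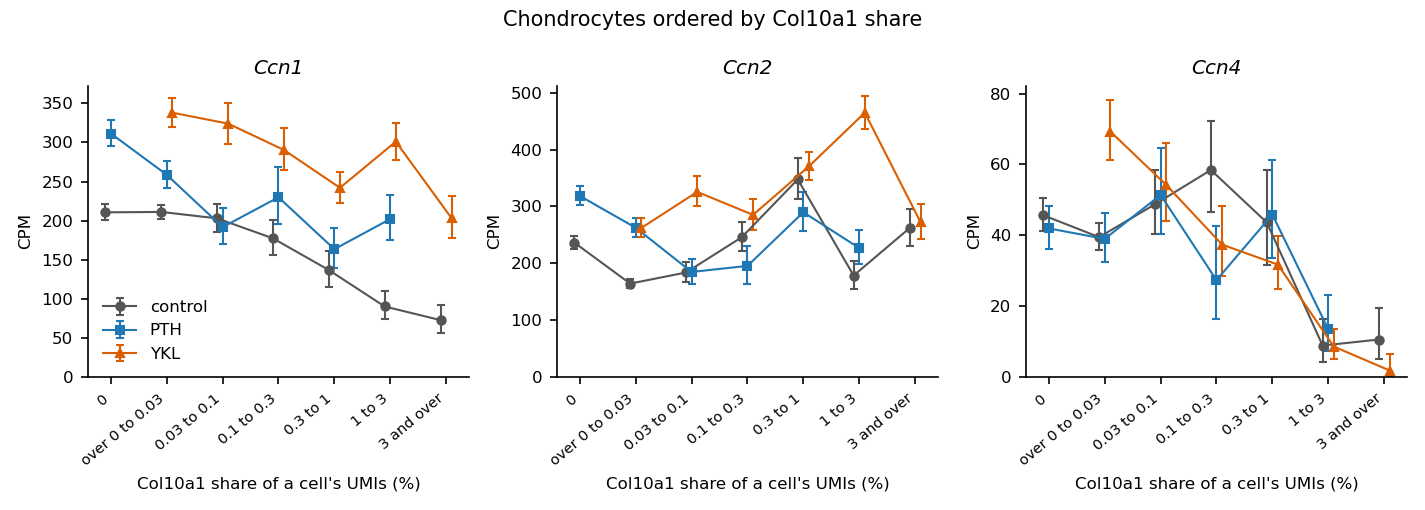
CPM of Ccn1, Ccn2 and Ccn4 (y axis) in chondrocytes grouped by the Col10a1 share of their UMIs (x axis, percent), by library, with exact 95% counting intervals; groups under 20 cells are not drawn. Ccn4 is lower in all 3 libraries where Col10a1 passes 1%, and Ccn1 is lowest in control cells of the highest Col10a1 share.

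Within the low and the high state, Ccn2 was unevenly held. Over the states it was at 194, 288 and 216 CPM in low, intermediate and high cells of control, 278, 251 and 250 CPM in PTH, and 282, 337 and 398 CPM in YKL. Low cells with at least 0.1% Ucma, a gene of immature chondrocytes, held 257 CPM of Ccn2 in control (562 cells), 398 CPM in PTH (230 cells) and 700 CPM in YKL (13 cells). Low cells under that share held 136, 165 and 243 CPM. The ratios were 1.89 (1.77 to 2.02), 2.42 (2.22 to 2.63) and 2.88 (2.55 to 3.24), the same direction in each library, beside 7.33%, 6.35% and 9.2% of genes higher. The YKL ratio rested on 13 cells with Ucma, fewer than the call asks for. The control low cells with Ucma, at 257 CPM (247 to 267), were just below the intermediate cells, at 288 CPM (267 to 310).

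Among high cells, those with at least 0.1% Mmp13, the collagenase of terminal chondrocytes, held 990 CPM of Ccn2 in control (16 cells), 326 CPM in PTH (9 cells) and 950 CPM in YKL (19 cells). High cells under that share held 134, 241 and 292 CPM. In PTH the intervals overlapped (235 to 441 against 214 to 272). The control and YKL ratios were 7.40 (6.11 to 8.95) and 3.25 (2.90 to 3.64), from fewer cells than the call asks for, beside 13.9% and 10.6% of genes higher. Ccn1 differed little by Mmp13, with ratios of 1.03 (0.587 to 1.71) in control and 0.827 (0.675 to 1.01) in YKL. By Ucma, Ccn1 was level in control (1.03) and higher in PTH (1.81, 1.67 to 1.96) and YKL (1.84, 1.62 to 2.09). Ccn4 did not differ by Ucma in control (0.998) or PTH (1.00) and was higher in the 13 YKL cells (157 against 57.1 CPM). These splits were chosen after seeing the data. Over the whole family, control low cells with Ucma also held more Ccn5 (7.37 against 3.51 CPM) and Ccn6 (5.18 against 2.59 CPM).

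**Figure D3:**
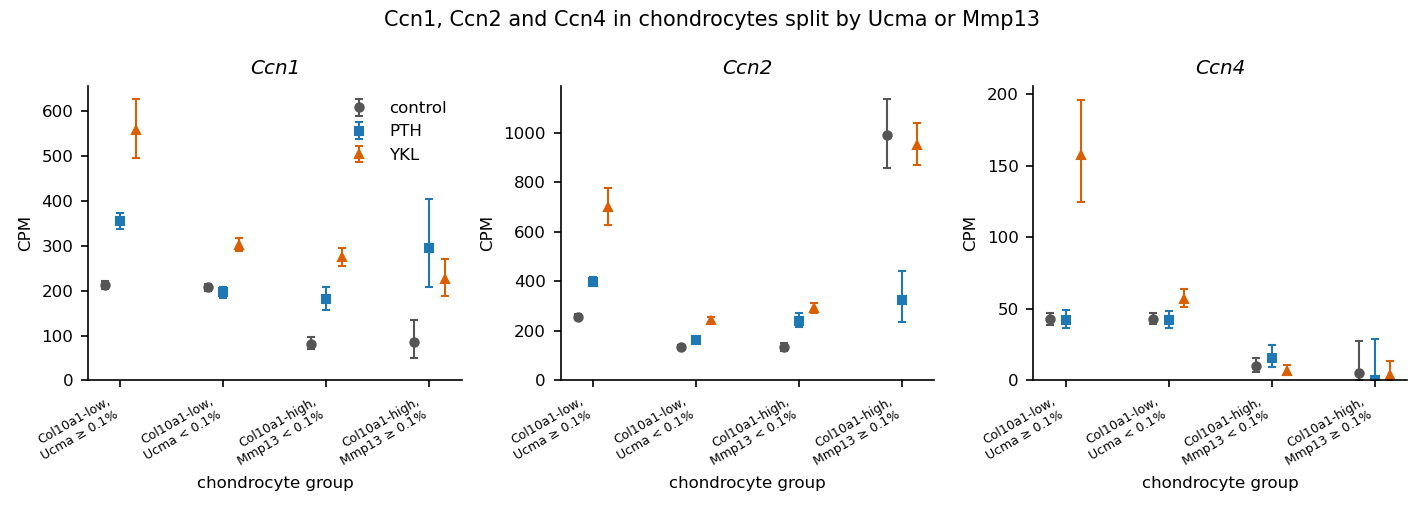
CPM of Ccn1, Ccn2 and Ccn4 (y axis) in Col10a1-low chondrocytes split by Ucma and Col10a1-high chondrocytes split by Mmp13 (x axis), by library, with exact 95% counting intervals. In low cells Ccn2 is higher with Ucma in each library, from 13 such cells in YKL. In high cells it is higher with Mmp13 in control and YKL, and the PTH intervals overlap, with 9 to 19 Mmp13-bearing cells per library.

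In single chondrocytes the members were unevenly spread. The 10% of control chondrocytes with most Ccn2 held 64.8% of its UMIs, against 40.8% for Ccn1 and 51.6% for Ccn4, where the deepest 10% of cells held 17.8% of all UMIs. After thinning each cell to 2000 UMIs, 27.2% of control, 34.0% of PTH and 31.5% of YKL chondrocytes had a UMI of Ccn1 (68.3%, 72.1% and 73.3% unthinned, at median depths of 16276.5, 17770 and 29520). The control neutrophils, at a median of 3326.5 UMIs, had 1.10% thinned and 2.98% unthinned. Cells with both Ccn1 and Ccn2 made up 7.57%, 10.8% and 12.7% of thinned chondrocytes in control, PTH and YKL, against 5.54%, 8.07% and 9.67% from the product of the single shares. Ccn1 and Ccn4 were together in 2.04%, 2.58% and 3.17%, against products of 2.20%, 1.66% and 1.53%.

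The comparison of treatments asked how a kinase inhibitor and PTH, which both act on salt-inducible kinase signalling, relate to these genes in the early callus. In all chondrocytes together, Ccn2 was at 205 CPM (199 to 211) in control, 271 CPM (262 to 280) in PTH and 327 CPM (318 to 337) in YKL. Its YKL-to-control ratio was 1.60 (1.53 to 1.66) and its PTH-to-control ratio 1.32. Ccn1 had the same order, at 195, 254 and 291 CPM, with ratios of 1.497 (1.43 to 1.56) for YKL, just under the call, and 1.31 (1.25 to 1.37) for PTH. The intervals of the 3 libraries did not overlap for either gene. Over 18 alternatives the YKL ratio of Ccn1 ranged from 0.973 to 1.88. Among others, it passed the call with at least 200 genes (1.54) and at resolution 0.4 (1.52). Most control and PTH chondrocytes lay in clusters led by Ucma and Omd, and most YKL ones in clusters led by Col10a1 and Espn, so the libraries differ in which chondrocytes they hold. All 12 osteoblast-lineage markers had UMIs in chondrocytes, summing to 7167 CPM in control, 12256 CPM in PTH and 12626 CPM in YKL, and their part in these ratios was not tested. With chondrocyte clusters weighted equally, the PTH ratio of Ccn2 was 0.727, on the other side of 1, and the YKL ratio was 1.60. These ratios cover different clusters. The PTH ratio includes a small cluster of 26 control and 25 PTH cells, at 997 and 406 CPM of Ccn2. That cluster held 1 YKL cell and is not in the YKL ratio. Of the other chondrocyte clusters, only that led by Ucma held more Ccn2 in PTH, at 473 against 285 CPM in control. In those led by Omd, Col10a1, Espn and Snorc, PTH was at 76.8, 263, 93.8 and 75.2 CPM. Control was there at 106, 272, 128 and 123 CPM, with overlapping intervals in the Col10a1-led cluster.

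By the call, 3 of 6 members were apart between YKL and control: Ccn2 and Ccn3 higher and Ccn5 lower, with 9.64% of 11460 measured genes higher and 8.55% lower. Ccn3 rested on 37 UMIs in YKL, most of them in the Ucma-led cluster described above, and with states weighted equally its ratio of 2.58 was 1.49. Ccn5 was at 4.88 CPM in control and 3.15 CPM in YKL (ratio 0.645, 0.442 to 0.925; 124 and 41 UMIs). With clusters weighted equally its ratio was 1.05. With the 3 states weighted equally, 1 member was past the call, Ccn1 at 1.88, and Ccn2 was at 1.46. With a mitochondrial maximum of 5%, 1 member was called and Ccn2 was at 1.28.

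Between PTH and control, Ccn3 alone was called, higher (5.16% of genes higher, 3.42% lower). It was at 2.52 against 1.10 CPM, a ratio of 2.28 (1.33 to 3.95) from 31 and 28 UMIs. Both levels were below the upper bound in control neutrophils given above. Over all kept cells Ccn3 was at 117 CPM in PTH and 20.2 CPM in control, and the part of free RNA in this call was not tested. Between YKL and PTH, Ccn6 alone was called, higher (6.39% higher, 6.4% lower), at 4.69 against 2.84 CPM and a ratio of 1.65 (1.07 to 2.57) from 61 and 35 UMIs. With states weighted equally it was 1.47, under the call. Ccn4 was within counting error in all 3 comparisons, with ratios of 1.01 (0.905 to 1.12) for YKL to control, 0.945 (0.847 to 1.05) for PTH to control and 1.06 (0.939 to 1.21) for YKL to PTH. With each cell thinned to 2000 UMIs, which weights cells equally, the first pair of ratios was 0.618 and 0.552.

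Within the Col10a1-high state, the libraries stood farther apart for Ccn1 than over all chondrocytes. In Col10a1-high cells Ccn1 was at 82.1 CPM in control, 193 CPM in PTH and 267 CPM in YKL, with ratios to control of 2.35 (1.92 to 2.87) for PTH and 3.25 (2.76 to 3.85) for YKL. All measured genes called higher in this state made up 4.93% for PTH and 7.53% for YKL. In low cells the ratios of Ccn1 were 1.30 (1.24 to 1.37) and 1.55 (1.47 to 1.63), and in intermediate cells 1.19 (1.02 to 1.38) and 1.63 (1.45 to 1.83). The YKL ratio in low cells was under the call with cells thinned to 2000 UMIs (1.27), as a mean over cells (1.36) and with a mitochondrial maximum of 5% (1.38). Ccn2 in high cells was at 216, 250 and 398 CPM, with a YKL ratio of 1.84 (1.65 to 2.05) and a PTH ratio of 1.16 (0.998 to 1.34). With the other pairs of Col10a1 boundaries the YKL ratio was 1.49 and 1.36, under the call. Between YKL and PTH Ccn2 was called higher in high cells, at 1.59 (1.41 to 1.80), beside 6.85% of genes, and thinned to 2000 UMIs per cell it was 1.16.

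Ccn4 lay on opposite sides of control by state in YKL. It was 65.7 against 42.9 CPM in low cells (ratio 1.53, 1.36 to 1.73; 7.43% of genes higher, 7.53% lower) and 33.9 against 52.3 CPM in intermediate cells (ratio 0.648, 0.505 to 0.832; 5.95% higher, 4.07% lower). In PTH the ratios were 0.986 (0.874 to 1.11) and 0.730 (0.534 to 0.992). With each cell thinned to 2000 UMIs the YKL ratio in low cells was 0.957, on the other side of 1, and with Col10a1 boundaries of 0.2% and 2% the ratio in intermediate cells was 0.863. Against PTH, YKL was also higher in low cells, at 1.55 (1.35 to 1.79), beside 6.1% of genes. Ccn5 was called lower in low cells of both treated libraries, at 3.24 CPM in YKL and 3.21 CPM in PTH against 5.37 CPM in control, with ratios of 0.604 (0.350 to 0.987) and 0.598 (0.386 to 0.902) and 3.73% of genes lower in PTH. Thinned, the YKL ratio of Ccn5 was 1.14.

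**Figure D4:**
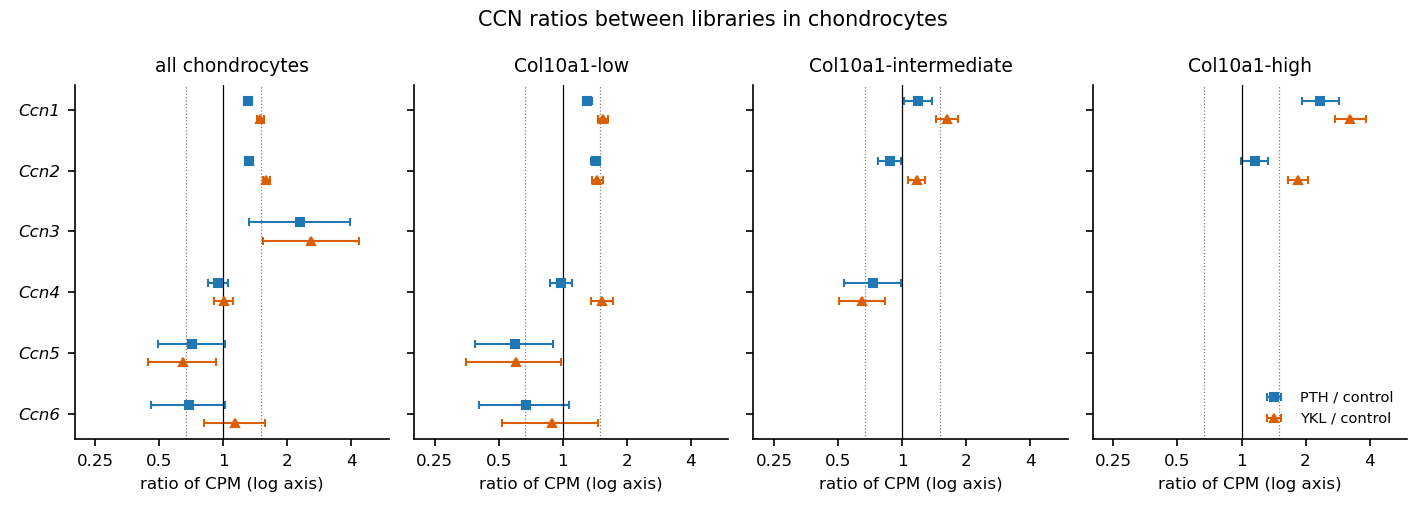
Ratio of CPM to control (x axis, log scale) for PTH and YKL in all chondrocytes and in each Col10a1 state, for CCN genes (y axis) with at least 50 UMIs, with exact 95% counting intervals; dotted lines mark 1.5-fold either way. Ccn1 stands farthest from 1 in Col10a1-high cells, at 2.35 for PTH and 3.25 for YKL.

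Over all chondrocytes, Ccn1 followed the library order of genes that cells switch on within minutes of stimulation or during enzymatic release. A list of 22 such genes, none of them a CCN gene, summed to 5839 CPM in control, 8055 CPM in PTH and 8376 CPM in YKL chondrocytes, with all 22 detected in each. Between YKL and control the call was met upward by 10 of the 22 and downward by 0, beside 9.64% and 8.55% of all genes, and the median log2 ratio of the list was 0.51 where that of all genes was -0.02. The farthest were Zfp36 (96.1 against 29.3 CPM), Egr2 (32.7 against 12.7), Atf3 (167 against 70.5) and Btg2 (349 against 163), which encode RNA-decay, transcription and growth-arrest factors. In high cells the list summed to 3895, 7627 and 6578 CPM in control, PTH and YKL, lowest in the library where Ccn1 was lowest. Its sum was higher in PTH than in YKL there, while Ccn1 was lower (193 against 267 CPM). Intermediate cells had the same order, at 9165 and 8228 CPM for the list and 191 and 261 CPM for Ccn1. From control to PTH the list and Ccn1 both rose in fibroblasts and endothelial cells. In pericytes the list was at 5645 and 8534 CPM, with Ccn1 at 268 and 266 CPM. In osteoblast-lineage cells it was at 2580 and 3396 CPM, with Ccn1 at 166 and 51.2 CPM.

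Chondrocytes were then compared within ranges of this list's sum, a choice made after seeing the data. Among high cells with under 0.4% of UMIs from the list, Ccn1 was at 42.7 CPM in control (108 cells), 36.8 CPM in PTH (24 cells) and 75.9 CPM in YKL (44 cells). At 0.8% and over it was at 377 CPM (14 cells), 338 CPM (33 cells) and 591 CPM (34 cells). Ccn1 was thus several times higher in the upper range in each library. The PTH ratio to control was 0.862 (0.483 to 1.47) in the lower and 0.898 (0.699 to 1.16) in the upper range, beside 2.35 over all high cells. The YKL ratio was 1.78 (1.29 to 2.46) and 1.57 (1.26 to 1.97), beside 3.25 over all high cells. In between, at 0.4% to under 0.8%, the YKL ratio was 6.22 (3.11 to 14.6), from 30 and 14 cells. Treatment and cell release cannot be told apart as sources of the list's level, since each group had a single library.

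Ccn2 differed from Ccn1 over these ranges. Over all chondrocytes its YKL ratio to control was 1.81 (1.70 to 1.92), 1.44 (1.33 to 1.57) and 1.96 (1.81 to 2.12) in the lower, middle and upper ranges, and its PTH ratio was 1.57, 1.39 and 1.38. The ratios of Ccn1 for YKL were 0.973 (0.879 to 1.08), 1.24 (1.13 to 1.35) and 1.48 (1.40 to 1.58), and for PTH 1.31, 1.25 and 1.05. These ratios mix states that the libraries hold in different shares. Within low cells the YKL ratios of Ccn1 were 1.22 (1.05 to 1.40), 1.46 (1.31 to 1.62) and 1.41 (1.31 to 1.52). In high cells the YKL ratio in the lower range was 1.78, as given above. In control chondrocytes Ccn2 was at 240, 202 and 146 CPM over the ranges, whereas Ccn1 was at 143, 216 and 267 CPM. In high cells the YKL ratio of Ccn2 was 2.48 (2.18 to 2.83), 4.30 (2.48 to 8.18) and 1.07 (0.841 to 1.37) over the ranges, and in low cells 1.15 (1.01 to 1.30), 1.59 (1.43 to 1.77) and 2.10 (1.90 to 2.31). The PTH ratio was 0.920, 5.60 and 0.766 in high cells and 1.94, 1.37 and 1.38 in low cells. The middle range of high cells holds 11 to 30 cells per library.

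**Figure D5:**
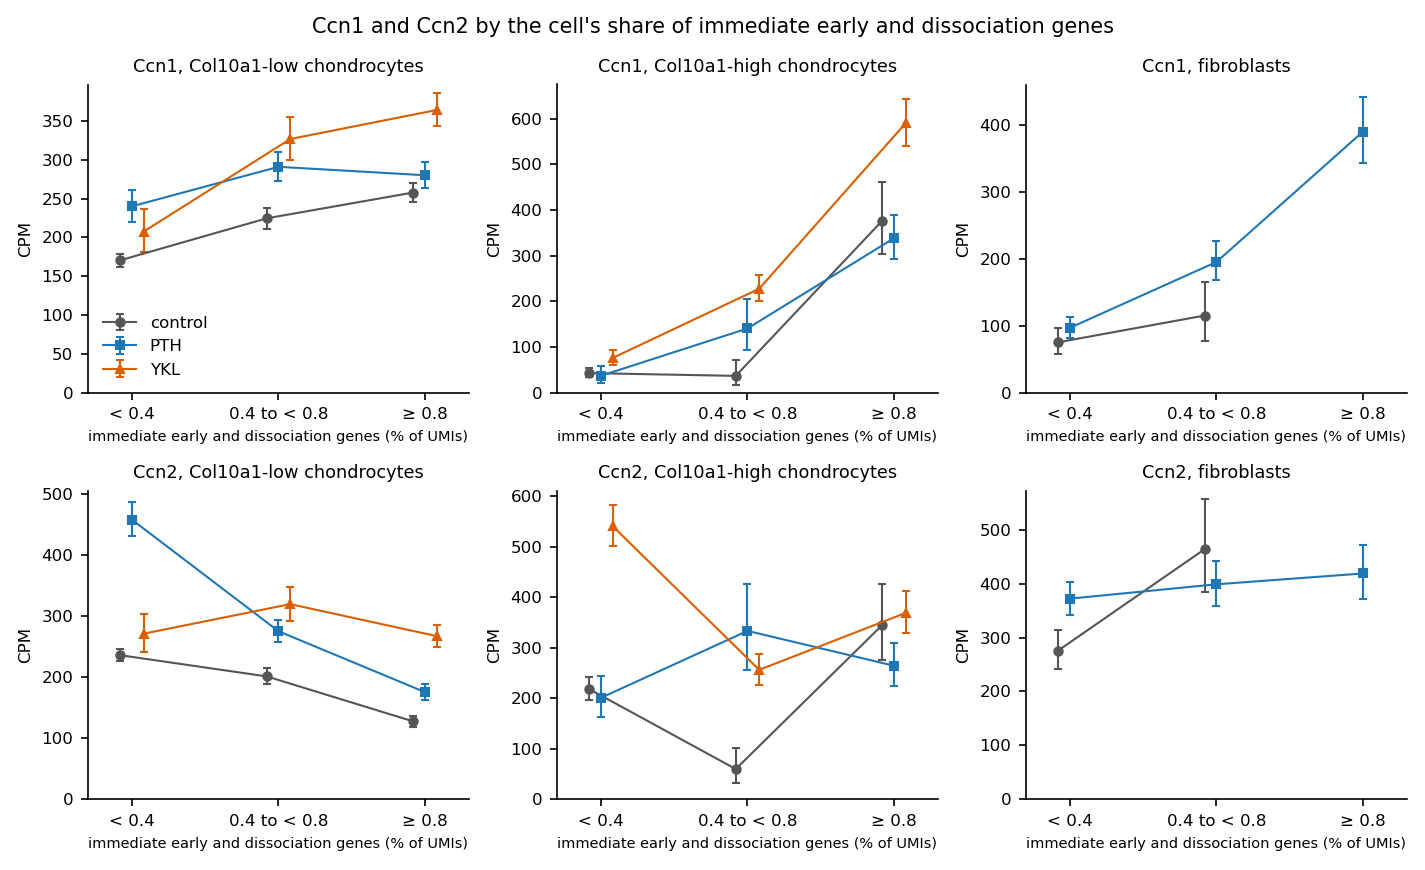
CPM of Ccn1 (top) and Ccn2 (bottom) on the y axes against the share of a cell's UMIs from 22 immediate early and dissociation genes (x axis, percent) in Col10a1-low and Col10a1-high chondrocytes and fibroblasts, by library, with exact 95% counting intervals; groups under 10 cells are not drawn. Ccn1 is higher in the highest than in the lowest range in each chondrocyte panel, reaching 338 to 591 CPM in Col10a1-high cells.

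In fibroblasts, where 5 of 6 members could be compared between PTH and control, Ccn1 was called higher and Ccn4 lower (9.8% of genes higher, 7.27% lower). Ccn1 was at 186 CPM (171 to 202) in PTH and 87.2 CPM (70.9 to 106) in control, a ratio of 2.14 (1.72 to 2.67). Ccn4 was at 43.4 CPM (36.4 to 51.4) and 77.6 CPM (62.3 to 95.5), a ratio of 0.560 (0.425 to 0.740). Ccn3, the fibroblast member, had a ratio of 1.38 (1.26 to 1.505), Ccn2 of 1.26 (1.12 to 1.42) and Ccn5 of 0.808 (0.609 to 1.08). The Ccn2 ratio ranged from 0.859 to 1.73 over 14 alternatives, and 1% of control fibroblasts held 35.8% of its UMIs. Immediate early and dissociation genes summed to 3263 CPM in control and 5409 CPM in PTH, with 9 of 19 measured called higher, among them Klf4, Fos and Jun. The Ccn1 ratio was 1.29 (0.955 to 1.75) in fibroblasts under 0.4% of the list and 1.70 (1.14 to 2.60) at 0.4% to under 0.8%, from 73 PTH and 16 control cells. Red cell genes summed to 18339 CPM in control and 4374 CPM in PTH fibroblasts, and tendon markers, 9 of 9 with UMIs in each, to 2085 and 2679 CPM, whose part was not tested.

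Endothelial cells held Ccn1 at 86.6 CPM (71.8 to 104) in control, 122 CPM (108 to 137) in PTH and 223 CPM (181 to 272) in YKL. The YKL-to-control ratio was 2.58 (1.95 to 3.399), called beside 15.1% of genes higher, but 46.9% of the 96 YKL UMIs came from 1% of the 53 cells, that is from 1 cell, and without the top 1% of cells in each library the ratio was 1.75. Ccn2 was lower in PTH than in control, at 24.5 against 60.4 CPM (ratio 0.406, 0.285 to 0.574; 3.41% of genes lower), and at a ratio of 0.726 with cells thinned to 2000 UMIs. Both members were higher in YKL than in PTH, at ratios of 1.83 (1.44 to 2.32) for Ccn1 and 3.32 (2.12 to 5.14) for Ccn2, with 8.92% of genes higher. The Ccn1 ratio was 1.25 without the top 1% of cells and 1.35 with cells thinned to 2000 UMIs, both under the call, and the thinned Ccn2 ratio was 2.13. UMIs of chondrocyte and red cell genes were highest in the control endothelial cells, and their source was not tested. Chondrocyte markers (16, 16 and 15 of 16 with UMIs) summed to 6533, 2478 and 1127 CPM in control, PTH and YKL. Haemoglobin and other red cell genes summed to 80815, 10836 and 28293 CPM. The list of immediate early and dissociation genes summed to 4008, 6277 and 6340 CPM. The part of these lists in the ratios was not tested. In pericytes and smooth muscle cells neither measured member was called between PTH and control, with Ccn1 at 0.991 (0.787 to 1.245) and Ccn2 at 0.667 (0.497 to 0.888), beside 10.8% of genes higher and 5.08% lower. No member had 50 UMIs in macrophages and monocytes.

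The Hippo pathway, which sets how much YAP and TAZ reach the TEAD factors on CCN promoters, has 17 listed components, of which 16 were measured in chondrocytes. Between YKL and control 1 was higher, Tead2 (2.92 against 1.496 CPM), and 1 lower, Amotl1 (33.5 against 50.7 CPM), shares near the 9.64% and 8.55% of all genes. Their sum was 432 CPM in YKL and 433 CPM in control, and their median log2 ratio 0.05. Between PTH and control 0 of 16 were called, beside 5.16% of all genes higher and 3.42% lower. Amotl1, a scaffold that holds YAP, was lower in high than in low cells of all 3 libraries, at ratios of 0.483 in control, 0.386 in PTH and 0.480 in YKL.

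Of 16 other targets of YAP and TAZ measured between YKL and control, 1 was higher (F3, tissue factor, 5.30 against 2.52 CPM) and 5 lower, with Igfbp3 at 2.46 against 6.85 CPM and Gadd45b at 333 against 565 CPM, beside 9.64% of all genes higher and 8.55% lower. The median log2 ratio was -0.10, and -0.02 over all genes. Between PTH and control 3 were higher and 0 lower, beside 5.16% and 3.42%. Among 13 measured genes of SRF and its cofactors, 3 were higher in YKL than in control, among them Srf itself (5.07 against 2.05 CPM) and Actb (1511 against 1001 CPM), and 2 were lower, beside the same 9.64% and 8.55% of all genes. The median log2 ratio of the 13 was 0.27.

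Of 10 measured receptors and co-receptors of CCN proteins, 5 were lower and 2 higher in high than in low control cells, and the same counts held in PTH, against 4 lower and 1 higher in YKL. Of all genes 24.6% were lower and 16.3% higher in control, 25.2% and 14.3% in PTH, and 21.9% and 15.8% in YKL. Their median log2 ratios were -0.54, -0.55 and -0.49 in control, PTH and YKL, where those of all genes were -0.09, -0.11 and -0.06. Itga6, an integrin chain through which Ccn1 and Ccn2 bind, was at 30.7 against 7.58 CPM and Itgb5 at 86.4 against 34.5 CPM. Tnfrsf11b, the decoy receptor osteoprotegerin, was at 1.92 against 14.1 CPM, and Fgfr2, a growth factor receptor, at 6.72 against 29.4 CPM. Between YKL and control, Itgb5 was higher (62.5 against 40.1 CPM) and Fgfr2 lower (16.8 against 25.8 CPM).

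Of 11 measured extracellular partners, 4 were higher and 2 lower in YKL than in control chondrocytes, beside 9.64% and 8.55% of all genes, with a median log2 ratio of 0.22 where that of all genes was -0.02. Bmp2, a bone-forming ligand that CCN proteins bind, was at 53.1 against 15.9 CPM, and Vegfa, the vessel growth factor held by Ccn2, at 212 against 109 CPM. Bgn was at 1222 against 2199 CPM and Fn1, the fibronectin gene, at 4684 against 7704 CPM. Bmp2 was also higher in high than in low cells of each library, at ratios of 6.72 in control, 5.37 in PTH and 4.93 in YKL.

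Relatives by structure or role were compared too. Of 8 measured genes with the insulin-like growth factor binding module, 1 was higher and 3 lower in YKL than in control, beside 9.64% and 8.55% of all genes, with Igfbp7 at 1371 against 2569 CPM and Igfbp4 at 25.9 against 55.3 CPM. Their median log2 ratio was -0.42 for YKL and 0.50 for PTH, where 4 were higher and 0 lower, beside 5.16% and 3.42% of all genes. Over all genes the medians were -0.02 and -0.01. Of 14 measured genes of other matricellular families, 1 was higher and 7 lower in YKL than in control, beside the same 9.64% and 8.55% of all genes, with a median log2 ratio of -0.60. Periostin (Postn) was at 184 against 513 CPM, Fbln2 at 30.3 against 96.6 CPM, and Thbs4 at 1.46 against 12.0 CPM. In high against low control cells 10 of 14 were lower and 1 higher, beside 24.6% and 16.3% of all genes. The 1 called higher was Spp1, the osteopontin gene, at 5696 against 742 CPM.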

How the data were processed

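The deposited UMI counts per gene and barcode came from the authors' run of Cell Ranger, version 4.0.0, as the headers of the deposited files say. Seurat and mm10 are named in the submitters' processing notes, and the annotation, cell filters and use of strand were not given in the sources used here. Cells with at least 500 genes and at most 10% mitochondrial counts were kept. Scrublet marked 31 of 6561 cells, too few to have worked, so doublets largely remain. Counts were scaled to 10000 per cell and clustered with scanpy 1.11.5 (2000 variable genes, 30 components, 15 neighbours, Leiden resolution 0.8) without integration, and the 25 clusters were named from marker lists. Haemoglobin-led, cycling and mixed clusters stayed unnamed (215 control, 129 PTH and 27 YKL cells). CPM intervals are exact Poisson and ratio intervals exact binomial, at 95%. With 1 library per group no test between groups is possible. The scripts were tested on simulated counts. The CCN members, the related gene lists and the splits were chosen with earlier results of these data known. Genes of related lists were named by how far the interval bound nearest to 1 lay from 1, up to 4 per list, and like genes were the 5 of highest r. Alternatives covered the gene and mitochondrial limits, doublets, resolution, thinning, scaling, minimum UMIs, weighting, fold and Col10a1 boundaries; leaving out the highest doublet scores, the Ucma and Mmp13 splits and the dissociation gene ranges were added after seeing the data. Promoters are from the RefSeq table of GRCm38.p6.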

Additional observations from a re-analysis of the deposited data

Results flagged for a closer look

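Between YKL and control, Ccn4 stood on opposite sides of 1 in chondrocytes of different Col10a1 content. In Col10a1-low cells the ratio was 1.53 (65.7 against 42.9 CPM), and in Col10a1-intermediate cells it was 0.648 (33.9 against 52.3 CPM). The difference between these ratios was not tested, since each group had 1 library. With each cell thinned to 2000 UMIs the low-cell ratio was 0.957 and the intermediate-cell ratio 0.380. Over 14 alternatives the low-cell ratio ranged from 0.957 to 1.72 and the intermediate-cell ratio from 0.380 to 0.863, so either call could be lost.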

How the results depend on the processing

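Of 28 single-member ratios past 1.5-fold, 395 alternative values were computed; 340 stayed past it on the same side, 49 came within it and 6 turned to the other side of 1. Those 6 were Ccn5 in chondrocytes, YKL to control, with clusters weighted equally (1.05), 3 values with cells thinned to 2000 UMIs (Ccn5 high to low in control, 2.39; in low cells, YKL to control, Ccn4 0.957 and Ccn5 1.14), and Ccn1 in high cells, PTH to control, within dissociation gene shares under 0.4% (0.862) and from 0.8% (0.898). The counts of members called changed as follows, and the cause was not tested. In chondrocytes, 3 for YKL to control became 4 with at least 200 or 1000 genes, at resolutions 0.4 and 1.2, scaled by the median of ratios and without the 1% of cells richest in the member, 2 as a mean over cells, and 1 with a mitochondrial maximum of 5%, with states weighted equally and at 2-fold. The 1 for PTH to control became 3 with thinned cells or clusters weighted equally, and 2 without the 1% of cells richest in the member. The 1 for YKL to PTH became 2 at resolution 0.4, as a mean over cells and without that 1%, and 0 with states weighted equally and at 2-fold. In endothelial cells, 1 for YKL to control became 2 with thinned cells and with no minimum of UMIs. The 1 for PTH to control became 2 with a mitochondrial maximum of 5% or doublets kept, and 3 with a maximum of 20% or no minimum. The 2 for YKL to PTH became 1 with thinned cells, without the 1% of cells and at 2-fold, and 3 with no minimum. Fibroblasts went from 2 to 1 at 2-fold and to 3 as a mean over cells, with thinned cells and without the 1% of cells. Pericytes went from 0 to 1 with at least 1000 genes, a mitochondrial maximum of 20%, the highest 8% of doublet scores left out, scaling by the median of ratios and without the 1% of cells, and to 2 with no minimum, as did macrophages. Members higher in high than in low cells went from 0 in control to 1 with at least 1000 genes, a maximum of 5%, either other pair of Col10a1 boundaries, no minimum and without the 1% of cells, and to 2 with thinned cells. In PTH they went to 1 with a maximum of 20% and at resolution 0.4, and to 2 with no minimum. In YKL they went to 1 with at least 200 genes, doublets kept, resolution 1.2 and no minimum. No paired analysis was possible because each group had 1 library. Depth limits Ccn5 and Ccn6, which had 638 and 212 UMIs in all.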
